A study of Rattus norvegicus with 12 samples.

Results

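Nonmuscle myosin and myosin phosphatase were followed as a set of 10 genes taken by name from the 33294 genes of the count table: Myh9, Myh10, Myl6, Myl12a, Myl12b, Ppp1r12a, Ppp1r12b, Ppp1r14a, Ppp1cb and Rock1. They were chosen by function, with earlier results of these data known, and all 10 were tested in every comparison. The question behind the set was what remains of the contractile machinery when the smooth muscle myosin genes fall. Poly(A) RNA was sequenced from rat PAC1 cells, a single line of pulmonary artery smooth muscle cells, in 4 groups of 3 libraries, and every group had received siRNA. D1 was differentiated PAC1 (PAC1-D) given control siRNA, and P was proliferative PAC1 (PAC1-P) given the same control. RBPMS KD1 was PAC1-D with siRNA against RBPMS, and MBNL KD was PAC1-D with siRNAs against both MBNL1 and MBNL2. PAC1-D cells had been split once a week at 1:10 and PAC1-P cells 2 times a week at 1:20, so that passaging and phenotype cannot be told apart between P and D1. Per the labels, cells received 90 pmol of siRNA 2 times, 24 h apart, and were taken 48 h after the second transfection. The study's methods give longer intervals, and which were used is not known here. The MBNL KD libraries are titled for MBNL1 alone, whereas their treatment label names both targets. The study's methods describe its knockdowns as biologically replicated, while the labels number the libraries without naming separate cultures, and p-values measure the spread between these libraries.

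Myosin II is built from paired heavy chains, essential light chains and regulatory light chains, and it pulls on actin once the regulatory light chain is phosphorylated. Smooth muscle cells hold a muscle form built on the heavy chain Myh11 and nonmuscle forms built on Myh9 or Myh10, the latter serving the cortex, stress fibres and the cytokinetic furrow. Myosin light chain kinase (Mylk) and the kinases Rock1 and Rock2 raise phosphorylation of the light chain, and myosin phosphatase, made of the catalytic subunit Ppp1cb and a targeting subunit of the MYPT family, removes it. Ppp1r14a encodes CPI-17, an inhibitor of that phosphatase that is abundant in smooth muscle.

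Myl12a and Myl12b encode near-identical regulatory light chains and are neighbours with 0 annotated genes between them in the RefSeq rat annotation, while Ppp1r12b and Ppp1r14a are the members with the largest falls in P. The 250 bases before the annotated start of each are shown because the first pair lay side by side and moved apart and the second pair fell together. The windows are from RefSeq on GRCr8, written 5′ to 3′ on the gene's strand, whereas the counts were made on mRatBN7.2. Capitals mark GGGCGG, the GC box read by Sp1 and KLF factors, or its reverse complement CCGCCC. The windows lie at chr9:118346278-118346527 (- strand) for Myl12a, chr9:118334811-118335060 (- strand) for Myl12b, chr13:48948923-48949172 (- strand) for Ppp1r12b and chr1:93713852-93714101 (+ strand) for Ppp1r14a.
Myl12a: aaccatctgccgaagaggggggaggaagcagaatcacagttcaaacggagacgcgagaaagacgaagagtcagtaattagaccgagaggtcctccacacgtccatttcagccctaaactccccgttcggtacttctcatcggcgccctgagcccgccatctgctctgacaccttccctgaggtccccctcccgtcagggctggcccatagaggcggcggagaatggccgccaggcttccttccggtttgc
Myl12b: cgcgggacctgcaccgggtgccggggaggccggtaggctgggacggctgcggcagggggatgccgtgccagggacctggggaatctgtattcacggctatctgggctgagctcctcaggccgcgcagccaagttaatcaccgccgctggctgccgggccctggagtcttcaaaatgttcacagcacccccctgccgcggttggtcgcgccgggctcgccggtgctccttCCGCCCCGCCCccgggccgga
Ppp1r12b: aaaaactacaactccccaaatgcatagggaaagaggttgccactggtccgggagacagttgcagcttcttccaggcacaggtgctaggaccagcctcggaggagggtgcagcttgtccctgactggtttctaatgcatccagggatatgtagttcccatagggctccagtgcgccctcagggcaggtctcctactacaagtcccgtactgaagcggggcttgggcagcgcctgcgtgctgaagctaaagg
Ppp1r14a: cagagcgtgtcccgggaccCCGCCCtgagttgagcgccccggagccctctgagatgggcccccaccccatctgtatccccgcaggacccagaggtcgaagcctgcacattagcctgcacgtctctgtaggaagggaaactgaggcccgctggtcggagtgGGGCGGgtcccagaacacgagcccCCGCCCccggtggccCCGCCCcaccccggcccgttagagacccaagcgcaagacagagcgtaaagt

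GGGCGG on either strand was found in 30.5% of 33469 RefSeq promoter windows of 250 bases, in which all 10 members were matched by symbol. Among the shown genes, Ppp1r14a held 4 matches and Myl12b held 2 that overlap by 1 base, whereas Myl12a and Ppp1r12b held 0. Among the other members, Myh9 held 4 before the first of its 2 annotated starts and 0 before the second, Ppp1cb held 3, Ppp1r12a 2, Rock1 2, Myh10 1 and Myl6 0. The letters were thus present in 7 of the 10 members, among them genes that rose, fell or changed little in P. The CArG box, the site of serum response factor, was in 1.5% of all windows and in none of the windows of the 10 members. The same scan found 0 in the windows of the smooth muscle markers Acta2, Mylk, Cnn1 and Smtn. Its absence therefore does not set the members apart from these markers. GGAATG, the MCAT site of TEAD factors on either strand, was in 12.1% of all windows and, among the members, in that of Myh10. These matches are descriptions of letters, and they do not show binding.

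Levels are given as scaled counts, the raw count divided by the library's TMM (trimmed mean of M values) effective size relative to the mean of the 12 libraries, and they are not corrected for gene length. Differences are log2 fold changes from the quasi-likelihood test of edgeR, and p-values were adjusted over all genes tested by the Benjamini-Hochberg method. A gene is said to have passed at an adjusted p under 0.05, and to be called when its log2 fold change also lay beyond 1 in either direction. Total counts per library ranged from 80842635 to 90771289, and edgeR's common biological coefficient of variation was 2.88% to 3.43%, so that differences of a few percent passed the test. Rbpms stood at 25.0% of its D1 level in RBPMS KD1 and at 6.32% in P, and Mbnl1 and Mbnl2 stood at 23.8% and 29.6% in MBNL KD. The summed level of 8 smooth muscle markers was 870325 to 914829 scaled counts in D1, 18716 to 19889 in P, 433753 to 449208 in RBPMS KD1 and 694966 to 705329 in MBNL KD. Of 6 endothelial markers, Cdh5 and Kdr were at 0 in D1 and in both knockdowns, and the sum was 67.0 to 72.4 in D1, 162 to 165 in RBPMS KD1, 83.2 to 128 in MBNL KD and 488 to 606 in P. The sum of 6 leukocyte markers stayed at or below 148 in all libraries, that of 5 epithelial markers was 3154 to 3310 in D1, 7131 to 7399 in P, 3448 to 3677 in RBPMS KD1 and 4763 to 4846 in MBNL KD, with Krt8 the only one above 100 and Epcam and Cdh1 at 0 in D1. The sum of 4 fibroblast markers was 12917 to 13869 in D1, 16646 to 17424 in P, 11339 to 12027 in RBPMS KD1 and 8148 to 8712 in MBNL KD. Most of that sum was Lum, and in RBPMS KD1 Lum was lower while Pdgfra (474 to 892) and Dcn (1144 to 1859) were higher. The sum of 6 skeletal and cardiac markers was 341 to 364 in D1, 243 to 276 in P, 85.0 to 123 in RBPMS KD1 and 812 to 909 in MBNL KD. The part of these markers in the results was not tested, and fewer cells of a type and less RNA per cell cannot be told apart in bulk RNA.

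In P, the nonmuscle myosin and phosphatase genes split into losses, small changes and a single large gain. With TMM scaling Myh10, Myl6 and the phosphatase genes Ppp1r12a, Ppp1r12b and Ppp1r14a fell at least 2.02-fold. Myl12b rose 2.99-fold, and Myh9, Myl12a, Ppp1cb and Rock1 moved by less. All 10 genes passed the test, where 77.9% of the 16814 genes tested passed, with 8 lower (37.6% of all genes passed as lower) and 2 higher (40.4%). Of the 10 genes 6 were called, against 27.6% of all genes, with 5 lower against 11.2% and 1 higher against 16.4%. With total counts and with quantile normalization Ppp1r12a lay inside the fold threshold (-0.85 and -0.89) and was not called. The median log2 fold change of the 10 genes was -0.81 and that of all genes tested was 0.02. When libraries were scaled by total counts the median of all genes was 0.19 and the 10 genes divided into 7 lower and 3 higher, and with quantile normalization that median was -0.07, with 6 lower and 3 higher. The share of called genes that were higher was 59.4% with TMM, 66.6% with total counts and 45.8% with quantile normalization.

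In RBPMS KD1, the decreases ran up to 0.60 on the log2 scale, for Ppp1r12a, and Myl12b did not pass. Of the 10 genes 9 passed, all of them lower, where 59.1% of the 15904 genes tested passed, 29.5% as lower and 29.5% as higher. None was called, and 4.68% of all genes were. With limma on the deposited normalised values 6 of the 10 genes passed, and Myh9, Myl6 and Myl12a no longer did. The median log2 fold change of the 10 genes was -0.32, beside 0.0043 for all genes.

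In MBNL KD, the set moved in both directions. Of the 10 genes 9 passed, where 67.5% of the 16053 genes tested passed, with 6 lower (33.7% of all genes) and 3 higher (33.8%). None was called, against 10.2% of all genes. The median log2 fold change was -0.13, beside 0.0099 for all genes. The comparisons of P, RBPMS KD1 and MBNL KD share the D1 libraries.

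**Figure D1:**
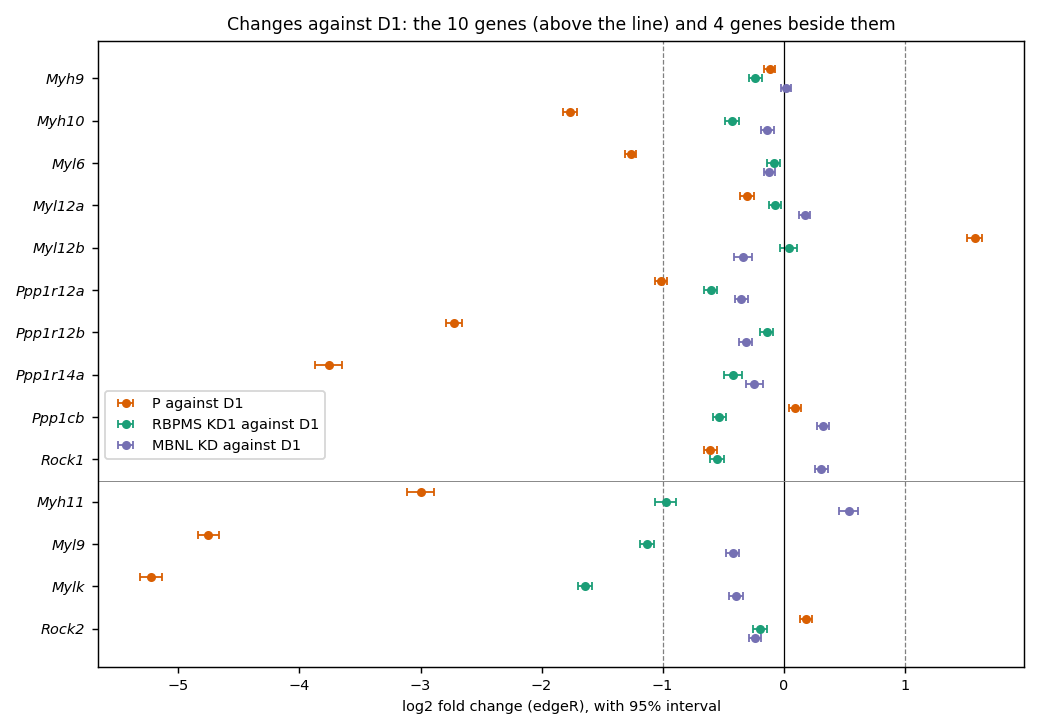
Log2 fold change against D1 (x axis) of the 10 genes, above the line, and of Myh11, Myl9, Mylk and Rock2, below it, with 95% intervals from edgeR and one colour per comparison; dashed lines mark the fold threshold. In P the changes run from -3.76 for Ppp1r14a to 1.58 for Myl12b, whereas in RBPMS KD1 and MBNL KD all 10 genes lie inside the dashed lines; the sign of the small Myh9 change in P turns positive under total count scaling and quantile normalization.

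Myh9, the heavy chain of nonmuscle myosin IIA, changed little in P with TMM scaling, and its direction depended on the scaling. It stood at 158560, 160561 and 158806 scaled counts in D1 and at 149016, 146844 and 147489 in P. The ranges did not overlap, but the log2 fold change of -0.11 ± 0.02 (SE, adjusted p = 2.9e-05 by edgeR's quasi-likelihood test) turned with the scaling. It was 0.05 with total counts (edgeR adjusted p = 0.025) and 0.29 with quantile normalization (edgeR adjusted p = 2.4e-10), passing in the other direction. RBPMS KD1 libraries held 142139, 134580 and 129437, all below D1, with a log2 fold change of -0.23 ± 0.03 (edgeR adjusted p = 2.9e-08). With limma on the deposited normalised values that difference was -0.07 and did not pass (adjusted p = 0.15). MBNL KD libraries, at 164641, 159322 and 159918, overlapped D1, with a log2 fold change of 0.02 (95% interval -0.02 to 0.06, edgeR adjusted p = 0.41). With total counts that difference was 0.07 and passed (edgeR adjusted p = 0.00074).

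Myh10, the heavy chain of nonmuscle myosin IIB, fell most in P and less in RBPMS KD1, and its small fall in MBNL KD depended on the scaling. Its levels were 64782, 69517 and 65110 scaled counts in D1 and 20146, 19462 and 19297 in P, a 3.40-fold decrease (log2 fold change -1.76 ± 0.03, edgeR adjusted p = 3.3e-33). Ndel1, which overlaps Myh10 in the annotation, had 9101 to 17128 counts per library. RBPMS KD1 lay between D1 and P at 50396, 49762 and 48098, with a log2 fold change of -0.43 ± 0.03 (edgeR adjusted p = 1.2e-13). In MBNL KD the levels were 62130, 59328 and 60106, below every D1 library. That fall, of 0.13 ± 0.03 on the log2 scale (edgeR adjusted p = 7.1e-05), shrank to -0.0038 with quantile normalization (edgeR adjusted p = 0.9).

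The ratio of Myh10 to Myh9 counts within a library, which does not depend on a divisor per library, was 0.417 in D1, 0.133 in P, 0.365 in RBPMS KD1 and 0.375 in MBNL KD. Each of the 3 groups lay below D1 without overlap, and the two-sided exact permutation test gave p = 0.1 for each, the smallest that 3 libraries against 3 allow. Over the 33 ratio tests made, 31 did not overlap and reached that p, and their Benjamini-Hochberg adjusted value was 0.106. On the log2 scale the Myh10 to Myh9 difference from D1 was -0.15 in MBNL KD and -1.65 in P, and with the deposited quantile-normalized values it was -0.0027 and -1.93. The muscle heavy chain Myh11 fell further than either nonmuscle chain in P, with a mean of 4563 ± 283 (SD, n = 3) scaled counts in D1 and 573 ± 49.7 in P, 7.99-fold lower. It fell by 0.98 in RBPMS KD1 and rose by 0.54 in MBNL KD on the log2 scale, in both cases past edgeR's test. The Myh9 to Myh11 ratio was 7.38-fold higher in P than in D1, 1.67-fold higher in RBPMS KD1 and 0.698 of the D1 ratio in MBNL KD. The Myh10 to Myh11 ratio was 2.35-fold higher in P and 1.46-fold higher in RBPMS KD1, and the MBNL KD ratio was 0.628 of that in D1, with p = 0.1 by the exact permutation test for each of these ratios.

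Among counts of the heavy chain genes Myh9, Myh10, Myh11 and Myh14, the share of Myh9 was 68.8% ± 0.721 (SD, n = 3) in D1 and 87.5% ± 0.173 in P. Over the same groups the share of Myh10 went from 28.7% ± 0.635 to 11.6% ± 0.171, and that of Myh11 from 1.97% ± 0.0902 to 0.339% ± 0.0263. These are shares of counts, set beside each other between groups and not between genes. The 4 genes together held 72.8% of their D1 scaled counts in P, 81.3% in RBPMS KD1 and 99.0% in MBNL KD.

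**Figure D2:**
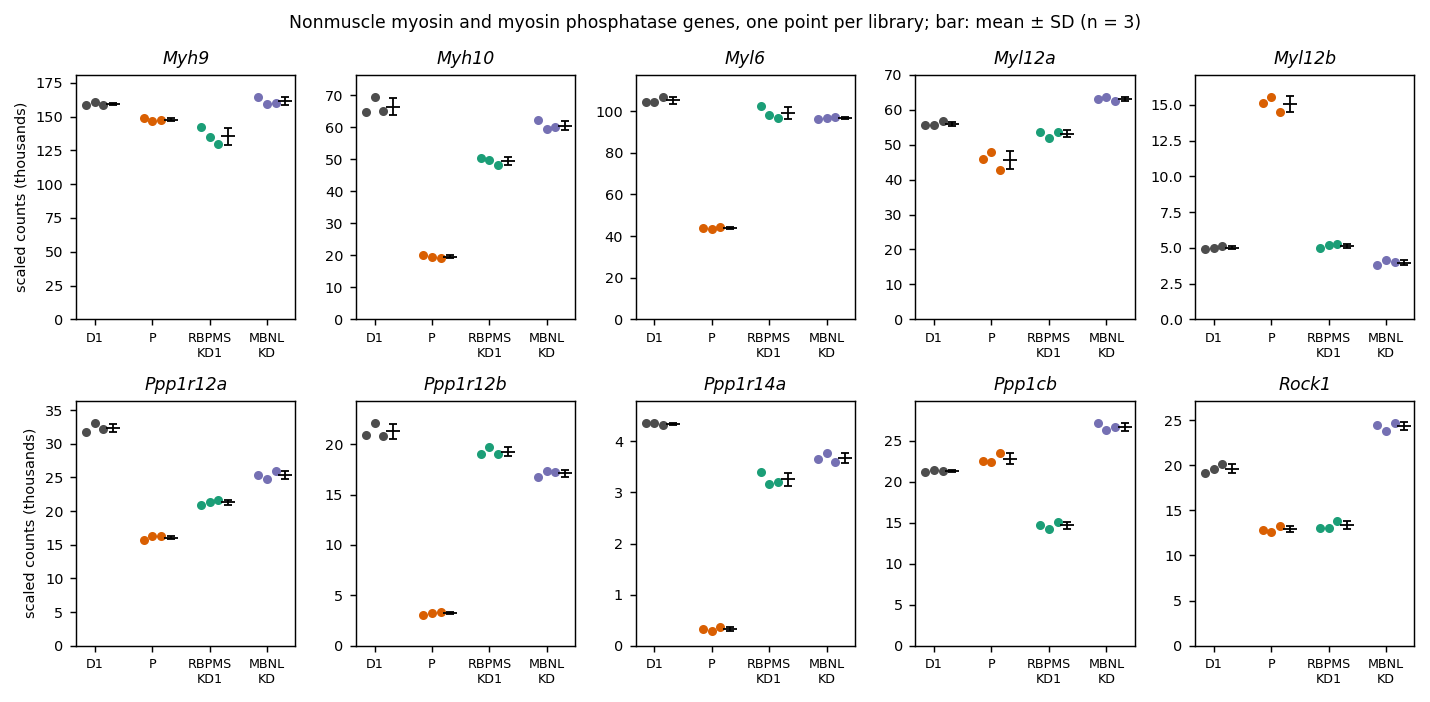
Scaled counts in units of 1000 (y axis, from 0) of each of the 10 genes in every library, grouped by condition, with the mean ± SD of 3 libraries beside the points. Myl12b is the gene whose 3 P libraries lie far above D1, at 14469 to 15564 against 4931 to 5162, and Ppp1r14a is the gene whose P libraries lie nearest to 0, at 291 to 359; the small difference of Myh9 between P and D1 changes sign with total counts or quantile normalization.

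Myl6 encodes the essential light chain shared by smooth muscle and nonmuscle myosin. Its D1 libraries held 104320, 104149 and 106827 scaled counts, and its P libraries 43761, 43490 and 44450. P thus lay at 41.8% of D1 (log2 fold change -1.26 ± 0.02, edgeR adjusted p = 5.0e-31). The knockdowns lowered it by little: RBPMS KD1 stood at 102218, 98309 and 96749 (log2 fold change -0.08 ± 0.03, edgeR adjusted p = 0.0058, but 0.11 by limma on the deposited normalised values), and MBNL KD at 95966, 96727 and 97317 (-0.12 ± 0.02, edgeR adjusted p = 1.9e-05). Both groups lay below D1 without overlap and overlapped each other. RefSeq lists 5 pseudogene symbols for Myl6, and how reads shared with such copies were counted is not stated.

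The regulatory light chain genes moved apart in P. Myl12b had 4931, 4959 and 5162 scaled counts in D1 and rose to 15117, 15564 and 14469 in P (log2 fold change 1.58 ± 0.03, edgeR adjusted p = 1.2e-30), the only call upwards among the 10 genes. Its neighbour Myl12a went from 55644, 55537 and 56723 to 45920, 47957 and 42756, a fall of 0.30 ± 0.03 on the log2 scale (edgeR adjusted p = 2.7e-11). Neither pair of ranges overlapped. With quantile normalization the Myl12a difference shrank to -0.06 (edgeR adjusted p = 0.099), while Myl12b stayed called under all scalings tried. Since the paralogues are near-identical in sequence, counting could have moved reads between them, and RefSeq also lists 1 pseudogene symbol for Myl12a and 2 for Myl12b. Mean scaled counts went from 55968 in D1 to 45544 in P for Myl12a and from 5017 to 15050 for Myl12b. The fall of Myl12a and the rise of Myl12b were thus alike in counts, and a shift of reads was not tested.

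In the knockdowns the light chain genes moved less. Myl12b was at 5009, 5202 and 5257 in RBPMS KD1, overlapping D1 (log2 fold change 0.04, 95% interval -0.03 to 0.11, edgeR adjusted p = 0.30). In MBNL KD it fell to 3794, 4143 and 3979 (-0.34 ± 0.03, edgeR adjusted p = 8.3e-10). Myl12a did the reverse of Myl12b in MBNL KD, rising to 63046, 63695 and 62355 (0.17 ± 0.02, edgeR adjusted p = 1.7e-07). In RBPMS KD1 Myl12a stood at 53520, 51925 and 53755, with a log2 fold change of -0.08 ± 0.02 (edgeR adjusted p = 0.0091). This last difference did not pass without D1 replicate 3 (-0.07, edgeR adjusted p = 0.054) or without RBPMS KD1 replicate 2 (-0.06, edgeR adjusted p = 0.072), and was 0.02 with quantile normalization.

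Myl9, the regulatory light chain of smooth muscle, fell 27.0-fold in P, from 70502 ± 2945 (SD, n = 3) to 2625 ± 273 scaled counts, and 2.19-fold in RBPMS KD1 and 1.34-fold in MBNL KD, each past edgeR's test. The Myl12a to Myl9 ratio was 0.794 in D1 and 17.4 in P, and 1.65 in RBPMS KD1 and 1.20 in MBNL KD. The Myl12b to Myl9 ratio was 80.7-fold higher in P and 2.25-fold higher in RBPMS KD1, without overlap and with p = 0.1 by the exact permutation test, whereas in MBNL KD it overlapped D1 (1.06-fold, exact permutation p = 0.3). Of the counts of Myl9, Myl12a and Myl12b together, Myl9 held 53.6% ± 1.12 (SD, n = 3) in D1, 4.15% ± 0.358 in P, 35.6% ± 0.817 in RBPMS KD1 and 44.0% ± 0.589 in MBNL KD. Myl12a held 42.6% ± 1.03 in D1 and 72.0% ± 0.453 in P, and Myl12b 3.82% ± 0.107 and 23.8% ± 0.397. Together the 3 genes summed to 48.1% of their D1 scaled counts in P, 68.7% in RBPMS KD1 and 90.9% in MBNL KD.

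**Figure D3:**
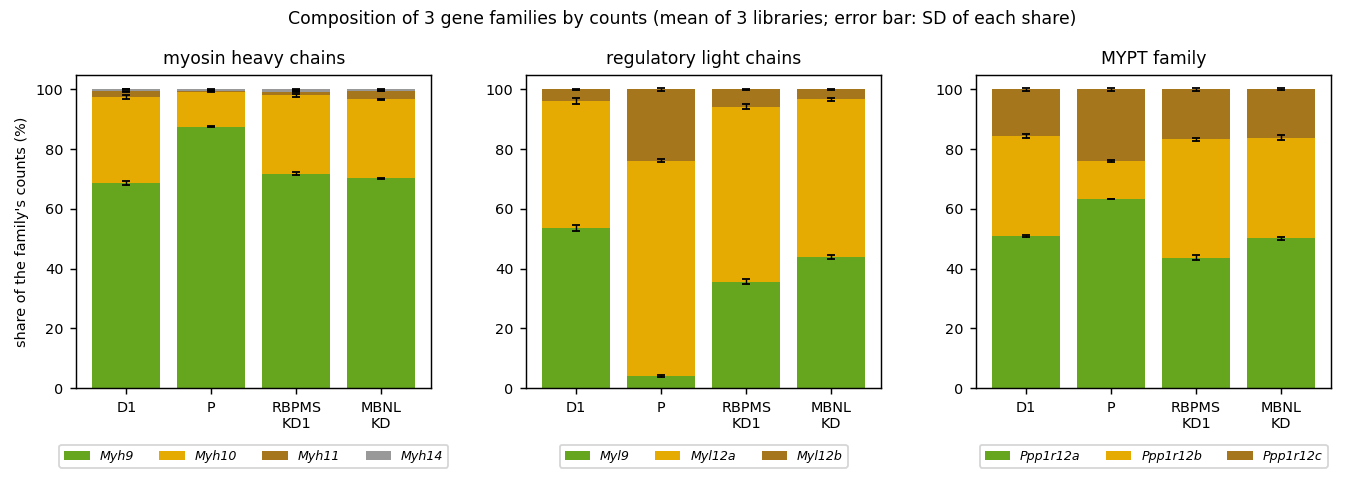
Share of each family's counts (y axis, %, from 0) held by its genes in the 4 groups, for myosin heavy chains, regulatory light chains and the MYPT family; segments are means of 3 libraries and error bars the SD of each share. Myl9 takes 53.6% of regulatory light chain counts in D1 and 4.15% in P, and Ppp1r12b takes 33.5% and 12.7% of MYPT counts.

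Ppp1r12a encodes MYPT1, the principal targeting subunit of myosin phosphatase. It was highest in D1, at 31808, 33068 and 32194 scaled counts, and lowest in P, at 15752, 16231 and 16225, a 2.02-fold fall (log2 fold change -1.01 ± 0.03, edgeR adjusted p = 2.1e-27). That value lay just past the fold threshold, and it was -0.85 with total counts and -0.89 with quantile normalization. Without P replicate 1 it fell short of the threshold, so that 5 of the 10 genes were called in place of 6. RBPMS KD1, at 20875, 21272 and 21714, lay below MBNL KD, at 25375, 24790 and 25926, and both lay below D1 (log2 fold changes -0.60 ± 0.03 and -0.35 ± 0.03, edgeR adjusted p = 7.4e-18 and 6.1e-13).

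Ppp1r12b encodes MYPT2, a targeting subunit known from striated and smooth muscle. Its levels were 20920, 22105 and 20830 scaled counts in D1 and 3085, 3290 and 3315 in P, 6.61-fold lower (log2 fold change -2.73 ± 0.03, edgeR adjusted p = 9.0e-37). In RBPMS KD1 it stood at 19077, 19779 and 18986 (-0.14 ± 0.03, edgeR adjusted p = 5.7e-05) and in MBNL KD at 16757, 17325 and 17217 (-0.31 ± 0.03, edgeR adjusted p = 1.2e-11). Here MBNL KD was the lower of the knockdowns, the reverse of the order for Ppp1r12a, and each difference between the knockdowns passed the direct test. The Ppp1r12b to Ppp1r12a ratio was 0.658 in D1, 0.201 in P and 0.906 in RBPMS KD1 (exact permutation p = 0.1 for each against D1). In MBNL KD the ratio was 0.674 and overlapped D1 (exact permutation p = 0.4). With Ppp1r12c, the remaining family gene, the MYPT genes summed to 39.9% of their D1 scaled counts in P, 76.6% in RBPMS KD1 and 79.7% in MBNL KD.

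Ppp1r14a showed the largest change of the 10 genes. Its D1 libraries held 4352, 4359 and 4329 scaled counts and its P libraries 318, 291 and 359, so that P was 13.5-fold lower (log2 fold change -3.76 ± 0.06, edgeR adjusted p = 6.6e-34). RBPMS KD1, at 3399, 3164 and 3208, and MBNL KD, at 3654, 3771 and 3590, lay between them without overlap (log2 fold changes -0.41 ± 0.04 and -0.24 ± 0.03, edgeR adjusted p = 6.3e-11 and 2.0e-07). An annotated protein-coding gene, LOC103689966, overlaps Ppp1r14a and had 410 to 1346 counts per library, and the strand setting of the counting is not stated. In counts, not corrected for length and read only between groups, the Ppp1r14a to Ppp1cb ratio was 0.204 in D1, 0.0141 in P, 0.222 in RBPMS KD1 and 0.138 in MBNL KD. Relative to D1, the ratio in P was 14.5-fold lower, and the ratio of Ppp1r14a to Ppp1r12a was 6.70-fold lower, each without overlap and with p = 0.1 by the exact permutation test.

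Ppp1cb, the catalytic subunit found in myosin phosphatase, rose slightly in P and moved in opposite directions in the knockdowns. It stood at 21168, 21458 and 21283 scaled counts in D1 and at 22530, 22423 and 23543 in P (log2 fold change 0.09 ± 0.02, edgeR adjusted p = 0.00093). RBPMS KD1 held 14677, 14294 and 15136, below every other library (-0.53 ± 0.03, edgeR adjusted p = 2.2e-16). MBNL KD held 27152, 26250 and 26634, above every other library (0.33 ± 0.02, edgeR adjusted p = 9.8e-13). The other catalytic subunit genes did not share the MBNL KD rise: Ppp1ca changed by -0.08 ± 0.03 and Ppp1cc by -0.27 ± 0.02 on the log2 scale, both past edgeR's test. In RBPMS KD1 Ppp1cc fell as well, by 0.44 ± 0.03, while Ppp1ca stood at 100.2% of its D1 level. In P both rose, Ppp1ca by 0.32 ± 0.02 and Ppp1cc by 0.36 ± 0.02. Of the counts of the 3 genes, Ppp1cb held 32.4% ± 0.497 (SD, n = 3) in D1, 28.8% ± 0.515 in P, 26.9% ± 0.802 in RBPMS KD1 and 40.0% ± 0.706 in MBNL KD. RefSeq lists 7 pseudogene symbols for Ppp1cb, and the 1 of them in the count table had at most 22 counts.

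Rock1 encodes a kinase that phosphorylates both the light chain and MYPT1. Its levels were 19090, 19622 and 20137 scaled counts in D1, 12863, 12644 and 13295 in P and 13093, 13074 and 13863 in RBPMS KD1. P and RBPMS KD1 lay below D1 by like amounts (log2 fold changes -0.61 ± 0.03 and -0.55 ± 0.03, edgeR adjusted p = 3.0e-20 and 4.8e-16), and their ranges overlapped. MBNL KD, at 24490, 23814 and 24673, lay above all other libraries (0.31 ± 0.03, edgeR adjusted p = 8.4e-12). The paralogue Rock2 did not follow this pattern, with log2 fold changes of 0.19 ± 0.03 in P, -0.20 ± 0.03 in RBPMS KD1 and -0.24 ± 0.02 in MBNL KD, each past edgeR's test. The Rock1 to Rock2 ratio was 1.04 in D1, 0.600 in P, 0.811 in RBPMS KD1 and 1.52 in MBNL KD (exact permutation p = 0.1 for each against D1).

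The direct comparison of the knockdowns asked where RBPMS and MBNL depletion differ. MBNL KD and RBPMS KD1 differed in 9 of the 10 genes, where 69.5% of the 16111 genes tested passed, with 7 higher in MBNL KD (35.1% of all genes) and 2 lower (34.5%). None of the 10 was called, and 11.9% of all genes were. The largest differences were those of Rock1 (log2 fold change 0.86 ± 0.03, edgeR adjusted p = 8.8e-22) and Ppp1cb (0.85 ± 0.03, edgeR adjusted p = 5.7e-22), short of the fold threshold. Myh10 (0.29 ± 0.03), Myh9 (0.25 ± 0.03), Ppp1r12a (0.25 ± 0.03), Myl12a (0.24 ± 0.02) and Ppp1r14a (0.17 ± 0.04) were also higher in MBNL KD, though Myh9 did not pass with limma on the deposited normalised values (0.07, adjusted p = 0.13). Myl12b (-0.38 ± 0.04) and Ppp1r12b (-0.18 ± 0.03) were lower. Myl6 did not pass (-0.04, 95% interval -0.09 to 0.01, edgeR adjusted p = 0.14), although it did without RBPMS KD1 replicate 3 (-0.07, edgeR adjusted p = 0.015).

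P was also set directly against the knockdowns. Against RBPMS KD1 all 10 genes passed, where 79.4% of all genes tested did, with 7 lower in P (39% of all genes) and 3 higher (40.5%). Against MBNL KD all 10 passed, where 81.5% of all genes did, with 9 lower (40.1%) and 1 higher (41.4%). With quantile normalization the split was 6 lower and 3 higher against RBPMS KD1 and 8 lower and 2 higher against MBNL KD, where Myh9 turned from -0.16 to 0.33. Of the 10 genes 5 were called in each comparison, Myh10, Myl6, Myl12b, Ppp1r12b and Ppp1r14a, where 29.1% of all genes were called against RBPMS KD1 and 32.9% against MBNL KD. Myl12b was the gene higher in P in both, by 1.52 ± 0.03 and 1.89 ± 0.03 on the log2 scale. Ppp1cb was higher in P than in RBPMS KD1 (0.61 ± 0.03) and lower than in MBNL KD (-0.26 ± 0.03). The Rock1 difference between P and RBPMS KD1 was -0.07 ± 0.03 (edgeR adjusted p = 0.022). It did not pass without P replicate 1 (-0.07, edgeR adjusted p = 0.081), without P replicate 2 (-0.06, edgeR adjusted p = 0.13) or without RBPMS KD1 replicate 3 (-0.04, edgeR adjusted p = 0.22). With all libraries kept it also did not pass with DESeq2 size factors or without the filter (adjusted p = 0.06 for each), by DESeq2 (adjusted p = 0.076) or in 1 joint fit (adjusted p = 0.15), and total count scaling turned it to 0.10.

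**Figure D4:**
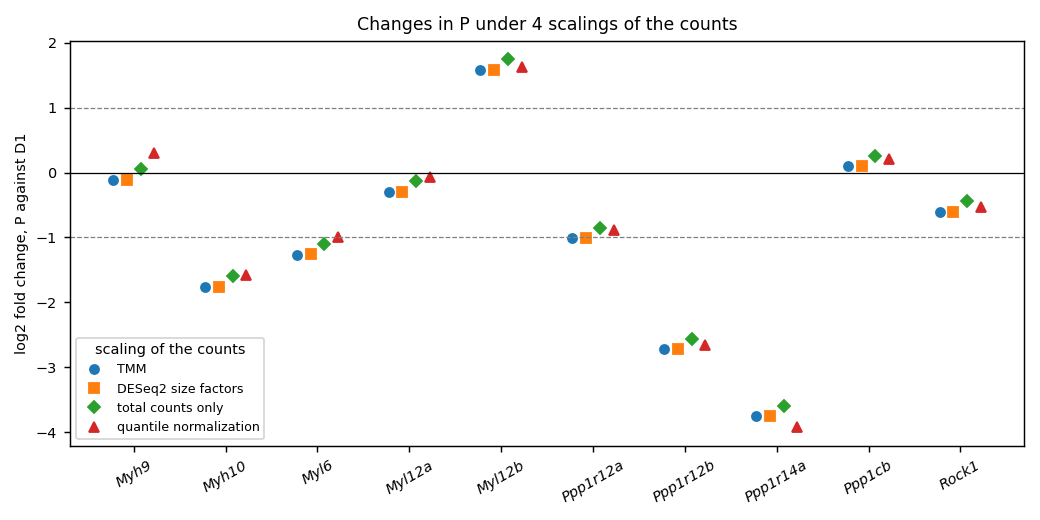
Log2 fold change of P against D1 (y axis) of the 10 genes under 4 scalings of the counts; dashed lines mark the fold threshold. Myh9 lies at -0.11 with TMM, 0.05 with total counts and 0.29 with quantile normalization, Ppp1r12a crosses the threshold, and the order of the large changes is kept.

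The kinases and phosphatase partners around the set were read from lists of named genes. Their counts stand beside the shares of all genes that passed as lower and as higher, which were 37.6% and 40.4% in P, 29.5% and 29.5% in RBPMS KD1 and 33.7% and 33.8% in MBNL KD. The share of all genes called was 27.6% in P, 4.68% in RBPMS KD1 and 10.2% in MBNL KD. Of 11 myosin light chain kinase genes tested in P, all passed, 9 lower and 2 higher. Mylk, the calmodulin-dependent kinase of smooth muscle, fell 37.4-fold (log2 fold change -5.23 ± 0.04), and Mylk3, its cardiac relative, fell from 2244 to 160 scaled counts (-3.82 ± 0.07). Cdc42bpa (MRCK alpha), a ROCK-like kinase, fell from 15366 to 7577 (-1.03 ± 0.03). Of the 8 other phosphatase subunits, inhibitors and partners tested, 4 were higher and 4 lower. Only Prkg1, the cGMP-dependent kinase that acts on MYPT1, was called, from 820 to 199 scaled counts (-2.04 ± 0.09), all values by edgeR's test.

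Of 8 calmodulin genes and partners of nonmuscle myosin tested in P, 6 fell and 2 rose. Svil (supervillin, an actin and myosin II binding protein) fell from 18128 to 4168 scaled counts (log2 fold change -2.13 ± 0.03) and S100a4, which binds the Myh9 heavy chain, from 59721 to 26841 (-1.16 ± 0.03). Of 6 other myosin chain genes tested, 5 fell and 1 rose. Beside Myh11 and Myl9, the calls were Myh3, from 269 to 10.7, and Myl4, from 346 to 70.3, striated muscle chains. These lists were tested with TMM scaling alone, and total count scaling moves the median of all genes in P to 0.19, so that the direction of small list changes in P is relative to the scaling.

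In RBPMS KD1, 8 of 11 kinase genes tested passed as lower, led by Mylk (log2 fold change -1.64 ± 0.03), and 1 passed as higher. Of 8 phosphatase partners, 4 were lower and 1 higher, and none was called, where 4.68% of all genes were.

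In MBNL KD, 6 of 11 kinase genes passed as lower and 1 as higher. Cit, the citron kinase of the cleavage furrow, was called, from 2524 to 1078 scaled counts (log2 fold change -1.23 ± 0.05), and Mylk fell by 0.39 ± 0.03. Of 8 phosphatase partners, 4 were lower and 2 higher, and none was called, where 10.2% of all genes were. Of the 7 calmodulin and partner genes tested, 4 were lower and 1 higher. Myo18a, a myosin-like protein that joins nonmuscle myosin filaments, fell from 15694 to 5593 scaled counts (-1.49 ± 0.03, edgeR adjusted p = 2.5e-28), with 15742 in RBPMS KD1. Among the other myosin chains, Myh3 rose from 269 to 824 (1.62 ± 0.12). Of the skeletal and cardiac markers, Tnnt2 went from 253 to 769 scaled counts and Myod1 from 0 to 59.1 in those libraries, while Ckm went from 87.0 to 29.8, all past edgeR's test.

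Nonmuscle myosin drives the cleavage furrow, and 9 cytokinesis genes were therefore read beside it. All 9 passed as lower in MBNL KD, where 33.7% of all genes did, and all 9 in RBPMS KD1, where 29.5% did. In P, where 77.9% of all genes passed, 3 were higher, 3 lower and 3 did not pass. In MBNL KD 4 of the 9 were called, where 10.2% of all genes were, with the largest falls in Plk1, from 4400 to 1845 scaled counts (log2 fold change -1.25 ± 0.04), Racgap1, from 9229 to 4009 (-1.20 ± 0.03) and Aurkb, from 3697 to 1621 (-1.19 ± 0.04). The remaining call was Incenp, named after its values were seen. Medians over the 9 genes were -0.85 in MBNL KD, -0.32 in RBPMS KD1 and -0.0039 in P. Among the nonmuscle heavy chains, by comparison, Myh9 did not pass in MBNL KD and Myh10 fell by 0.13 with TMM scaling, which did not pass with quantile normalization. In the study's EdU assay, proliferation was higher in P and after RBPMS knockdown, while MBNL1/2 knockdown had no effect. The RNA levels of these genes are thus not read as a measure of cell division.

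For each called member, the genes most like it were taken by Pearson's correlation of log2 scaled counts over the 12 libraries, among 12646 genes. The libraries share their depth and scaling, and the values are set mainly by P against the other 9, so they are descriptions. Myh10 was most like Palld, Myl9 and Grik5 (r = 0.999 for each). Ppp1r14a was most like Tagln, Aoc3 and Hey2 (r = 0.999 for each), and the P level of Tagln was 5517 scaled counts, beside 287961 in D1. Myl6 was most like Dennd5b, Lsamp and Specc1, and Ppp1r12b most like Cdc42bpa, Lsamp and Cav3. Myl12b was most like Fam102a, Egln1 and Iah1 (r = 0.999, 0.999 and 0.998). Ppp1r12a had no such close match, with r = 0.991 for Eef1d, Diaph3 and Actg1. Over the same libraries, 98 genes had r above 0.99 with Myh10 and 3 with Ppp1r12a.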

How the data were processed

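The values used are gene-level read counts that the authors deposited. Per the methods and the labels, the authors subsampled reads with seqtk to a common number per sample, aligned them with STAR 2.7.11b to mRatBN7.2 and counted genes with featureCounts, and the strand and mate settings are not given in the sources used here. Count totals exceed the stated number of subsampled reads, so mates may have been counted separately, and halved counts were an alternative. A second deposited table holds the authors' normalised signal, noise-corrected by noisyR and then quantile-normalized, and served only for an alternative.

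Counts were fitted for each of 6 comparisons on its 6 libraries with edgeR 4.0.16 in R 4.3.3 (filterByExpr, TMM, quasi-likelihood F test, Benjamini-Hochberg over all genes tested). Standard errors are the log2 fold change over the square root of F. Ratios of 2 genes (1 count added) were compared by two-sided exact permutation tests over libraries. DESeq2 1.42.0, limma 3.58.1, other scalings, no filter, 1 joint fit, a replicate block and each library left out were alternatives. The steps were tested on simulated data. Figures used matplotlib 3.10.9 in Python 3.11.15.

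The members and lists were chosen with earlier results of these data known. All members were named, as were called genes of the pathway lists that reached 100 scaled counts in either group, at most 3 rises and 3 falls per list, and the 3 genes most like each called member. Gene lengths were not used, so levels are not compared between genes. Myh11, Myl9, Mylk and Rock2 were named beside the members. A further list of pathway genes, with its called genes, is not reported here.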

Additional observations from a re-analysis of the deposited data

Results flagged for a closer look

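Myl12a, Ppp1cb and Rock1 were picked out because they went in opposite directions in the knockdowns: in each, all 3 RBPMS KD1 libraries lay below all D1 libraries and all 3 MBNL KD libraries lay above them. The direct edgeR quasi-likelihood test of MBNL KD against RBPMS KD1 gave log2 fold changes of 0.24 for Myl12a, 0.85 for Ppp1cb and 0.86 for Rock1, and since the genes were picked for lying on opposite sides of D1, these values are a description and no separate support. The RBPMS KD1 side of the Myl12a pattern did not hold under quantile normalization, where its log2 fold change against D1 was 0.02. For Ppp1cb and Rock1 both sides passed, in the same direction, under all alternatives run.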

How the results depend on the processing

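Of 900 alternative values of the members' fold changes, 869 kept their direction and side of the adjusted p threshold, 11 changed sign and 20 crossed the threshold. With limma on the deposited normalised values 6 members passed in RBPMS KD1 against D1, in place of 9. Without the fold threshold, 10 members passed in P against D1, 9 in RBPMS KD1 against D1, 9 in MBNL KD against D1, 9 in MBNL KD against RBPMS KD1, 10 in P against RBPMS KD1 and 10 in P against MBNL KD, where 6, 0, 0, 0, 5 and 5 were called. Changes of sign were all of differences that were small with TMM, and their cause was not tested. Some reversed values passed. In P against D1 Myh9 passed with total counts (edgeR adjusted p = 0.025), quantile normalization (edgeR adjusted p = 2.4e-10) and limma (adjusted p = 5.1e-06). In P against MBNL KD it passed with quantile normalization (edgeR adjusted p = 1.1e-11) and limma (adjusted p = 4.1e-06). Rock1 passed in P against RBPMS KD1 with total counts (edgeR adjusted p = 0.0027). With total counts the log2 fold change was 0.054 for Myh9 in P against D1, 0.0027 for Myl6 in MBNL KD against RBPMS KD1 and 0.10 for Rock1 in P against RBPMS KD1. With quantile normalization it was 0.29 for Myh9 in P against D1, 0.33 for Myh9 in P against MBNL KD, 0.020 for Myl12a in RBPMS KD1 against D1 and -0.00024 for Myh9 in MBNL KD against D1. With limma on the deposited normalised values it was 0.32 for Myh9 in P against D1, 0.32 for Myh9 in P against MBNL KD, 0.015 for Myl12a in RBPMS KD1 against D1 and 0.00054 for Myh10 in MBNL KD against D1. The same limma fit called 209 genes of all tested in RBPMS KD1 against D1 in place of 745, 784 in place of 1643 in MBNL KD against D1 and 1050 in place of 1920 between the knockdowns. Of the genes called in RBPMS KD1 against D1 65.4% were higher, against 54.3% with quantile normalization and 50.2% with limma, and in MBNL KD against D1 59.6%, against 50.6% and 49.5%. In P against RBPMS KD1 the share was 55.4%, and 45.0% with quantile normalization, and in P against D1 the limma share was 50.4%. Members called in P against D1 were 5 or 6 when each library was left out in turn. Same-numbered libraries deviated together little (correlations of -0.05 to 0.08), which cannot show whether they shared a culture or batch. The replicate block gave 6, 0, 0, 0, 5 and 5 called members, the counts without it. Within same-numbered libraries 32 of 33 ratios differed in the same direction in all 3, against 31 whose groups did not overlap. Ratios changed sign in 0 of 165 alternatives, and 15 moved by more than 1 SD, all with the deposited normalised values. With 3 libraries a group the permutation tests could not go below 0.1.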
